A study of Homo sapiens with 4 samples.

Results

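The expression of 10 genes of the hypoxia response was examined in HaCaT cells after knockdown of ALKBH5. The genes were HIF1A, VEGFA, CA9, BNIP3, NDRG1, ADM, EGLN1, EGLN3, ANKRD37 and P4HA1, and they were chosen by name among the 58735 genes in the deposited tables. All 10 were found, and all 10 had enough counts to be tested. HaCaT (spelled HaCAT in the labels) is an immortalised line of human keratinocytes. The siControl cells (genotype WT) were transfected with a normal control siRNA, and the siALKBH5 cells (genotype ALKBH5 knockdown) were transfected with siRNA against ALKBH5, an eraser of the m6A mark on RNA. Both groups received 200 pmol siRNA with lipofectamine, and both were grown in DMEM with serum in a humidified CO2 incubator. The protocols name no low-oxygen treatment in either group. RNA-seq of poly-A RNA gave 2 libraries per group, and the comparison asked which genes differed when ALKBH5 was depleted in 1 cell line by a transient knockdown.

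Hypoxia-inducible factor (HIF) is a transcription factor made of an oxygen-labile alpha subunit, such as that encoded by HIF1A, and a stable beta subunit encoded by ARNT. When oxygen is present, prolyl hydroxylases of the EGLN family modify the alpha subunit, which the VHL ubiquitin ligase then marks for destruction. When oxygen is scarce the subunit persists, enters the nucleus and binds short motifs beside genes for glycolysis, blood vessel growth, pH control and collagen processing. HIF activity is set largely at the protein level, and RNA counts measure the transcripts of the factor and of its targets but not the protein.

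Of the 10 genes, 3 were higher in siALKBH5 (EGLN3, VEGFA and NDRG1), 3 were lower (EGLN1, ADM and P4HA1), and 4 did not pass the test (HIF1A, CA9, BNIP3 and ANKRD37). Calls needed an adjusted p under 0.05 in the quasi-likelihood test of edgeR, adjusted by Benjamini-Hochberg over the 15075 genes tested. Of all genes tested, 19.3% were called higher and 17.3% lower by the same rule. EGLN3 alone was also past a log2 fold change of 1, so that 1 gene was higher and 0 were lower at that size, against 1.62% and 1.3% of all genes. It passed the count filter only through the siALKBH5 libraries, where it was high. The siALKBH5 libraries lay above both siControl libraries for 5 of the 10 genes and below both for 4, and they overlapped for CA9. Among all genes tested, 32.8% lay above and 33.5% below in this way. The median log2 fold change was 0.09 over the 10 genes and -0.01 over all genes tested. The 3 calls of lower expression held without each library in turn, whereas the number of higher calls fell to 1 without siControl replicate 1, without siControl replicate 2 or without siALKBH5 replicate 1, and to 2 without siALKBH5 replicate 2.

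**Figure D1:**
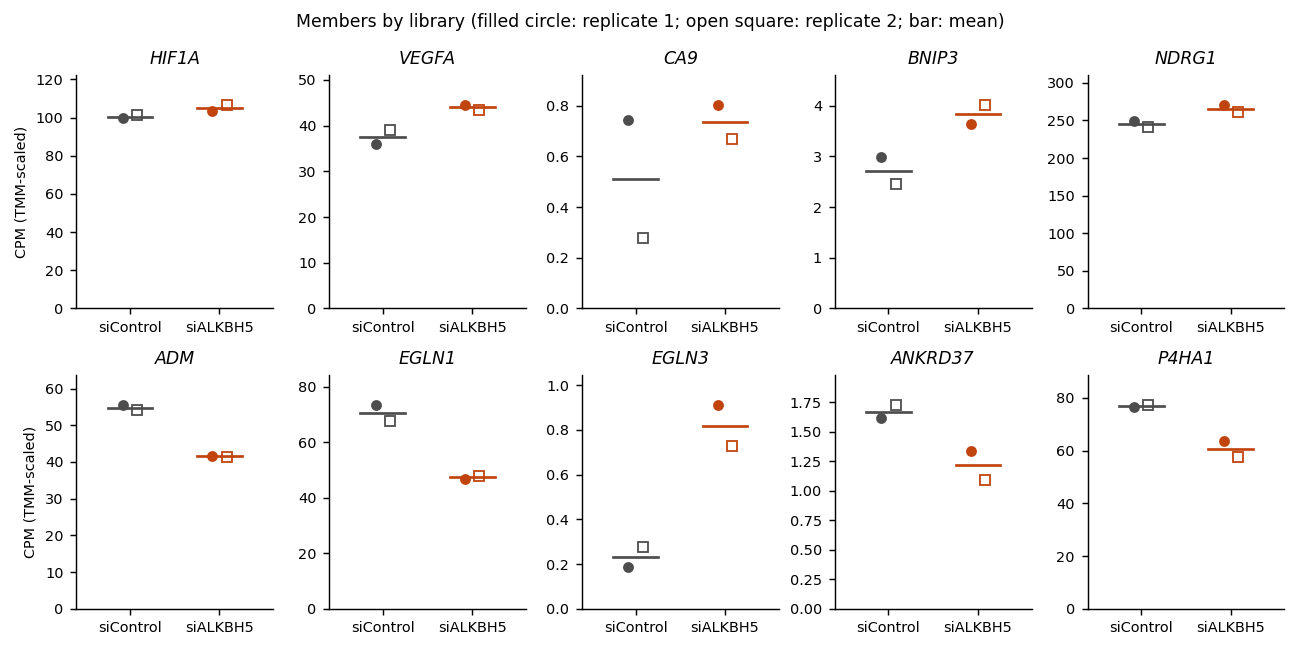
Level of each of the 10 genes in every library, in CPM (counts relative to the TMM-scaled library size) on the vertical axis, which starts at 0, with siControl in grey and siALKBH5 in orange. Filled circles are replicate 1, open squares are replicate 2 and bars are group means. EGLN1, ADM and P4HA1 sat lower in both siALKBH5 libraries, EGLN3 sat higher from a very low level, and the CA9 values of the groups overlapped.

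The promoter sequences of the 3 genes that were lower and of EGLN3, the higher gene with the largest fold change, are shown to place these genes beside the motif that HIF binds. Each runs from 250 bases before to 50 bases after the RefSeq start site on GRCh38.p14 and is written along the strand of its gene. Capitals mark the HIF core motifs ACGTG or GCGTG, searched on both strands, so that a match on the opposite strand reads CACGT or CACGC. The windows are chr1:231422238-231422537 on the minus strand for EGLN1, chr10:73096817-73097116 on the minus strand for P4HA1, chr11:10304823-10305122 on the plus strand for ADM and chr14:33951025-33951324 on the minus strand for EGLN3.
EGLN1: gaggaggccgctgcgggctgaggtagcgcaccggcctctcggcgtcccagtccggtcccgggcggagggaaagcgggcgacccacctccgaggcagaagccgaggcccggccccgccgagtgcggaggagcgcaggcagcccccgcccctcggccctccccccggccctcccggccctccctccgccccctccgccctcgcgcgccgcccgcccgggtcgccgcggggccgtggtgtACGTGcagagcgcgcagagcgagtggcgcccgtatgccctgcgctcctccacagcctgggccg
P4HA1: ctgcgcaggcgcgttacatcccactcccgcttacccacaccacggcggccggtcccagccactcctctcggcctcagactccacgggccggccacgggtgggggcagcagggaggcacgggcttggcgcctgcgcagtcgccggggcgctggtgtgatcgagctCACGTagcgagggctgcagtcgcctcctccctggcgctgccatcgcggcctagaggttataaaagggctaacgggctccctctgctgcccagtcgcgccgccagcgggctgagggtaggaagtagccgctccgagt
ADM: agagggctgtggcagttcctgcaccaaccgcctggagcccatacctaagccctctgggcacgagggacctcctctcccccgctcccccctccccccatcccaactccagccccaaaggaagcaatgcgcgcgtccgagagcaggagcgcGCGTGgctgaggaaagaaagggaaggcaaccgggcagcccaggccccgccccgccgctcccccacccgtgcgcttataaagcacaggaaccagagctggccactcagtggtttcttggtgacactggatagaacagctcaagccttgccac
EGLN3: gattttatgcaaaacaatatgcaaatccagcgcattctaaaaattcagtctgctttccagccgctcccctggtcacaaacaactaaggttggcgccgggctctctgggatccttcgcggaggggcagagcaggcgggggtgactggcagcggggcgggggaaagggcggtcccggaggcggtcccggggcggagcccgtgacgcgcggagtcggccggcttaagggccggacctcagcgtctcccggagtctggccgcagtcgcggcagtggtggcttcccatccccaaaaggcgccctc

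EGLN1 held 1 match to ACGTG that began 13 bases before the start site. P4HA1 held 1 match to ACGTG on the opposite strand, 86 bases before the start site, and ADM held 1 match to GCGTG 101 bases before it. EGLN3 held 0 matches in this window, which says nothing of motifs elsewhere in the gene. RefSeq gave 9 promoter entries for 8 of the 10 genes, with 2 entries for HIF1A and none here for VEGFA and NDRG1. Of the 9 entries, 7 (77.8%) held either core motif, against 48.4% of the 34796 promoters searched, and 5 (55.6%) held ACGTG, against 21.4%. The genes were listed as genes of the hypoxia response, so a higher share could be foreseen and says nothing of the knockdown. ANKRD37 had 3 matches and BNIP3 had 6, some of them on both strands of the same bases (CACGTG), and CA9 had 1 match 18 bases before the start site. For HIF1A, 1 entry had 1 match 204 bases before the start site and the other had 0.

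Before the genes of the pathway were compared, the target of the knockdown and the identity of the cells were checked. The libraries held between 16017502 and 18837807 counts on genes, and the mitochondrial share was 9.63% to 10.2%. ALKBH5 fell from 1512 and 1576 counts with control siRNA to 956 and 816 counts after knockdown, which is 55.5% of the control level. The 10 keratinocyte markers summed to 18197 and 17815 CPM in siControl and to 23572 and 23646 in siALKBH5, with 4 called higher and 3 lower. KRT5 had the highest level, with a mean of 7034 CPM in siControl and 11248 in siALKBH5. The median log2 fold change of the 10 markers was -0.005. Markers of other cell types summed to 18.7 to 22.8 CPM for fibroblasts (7 genes, with PDGFRA, PDGFRB and COL1A2 at 0 counts), 32.5 to 35.5 for endothelium (5 genes, nearly all from CDH5 and VWF, with PECAM1 at 1 count in all), 11.9 to 14.2 for melanocytes (5 genes, TYR at 0) and 0.243 to 0.559 for leukocytes (4 genes). Of the 3 fibroblast markers tested, DCN and LUM were called lower, and of the 2 endothelial markers tested CDH5 was called lower and VWF higher. By the same rule, 19.3% of all genes tested were higher and 17.3% lower. Most of the fibroblast sum came from COL1A1, which was not called, with means of 16.9 CPM in siControl and 16.4 in siALKBH5. The part of these markers in the results below was not tested. Fewer cells with a transcript and less of it per cell cannot be told apart in such bulk libraries.

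HIF1A (ENSG00000100644, chromosome 14 of GRCh38 from 61695513 to 61748259) encodes the alpha subunit that oxygen controls. Its level was 99.5 and 101 CPM in the siControl libraries and 103 and 107 CPM in the siALKBH5 libraries. The 4 values were close, and the siALKBH5 values lay just above the control values. HIF1A had a log2 fold change of 0.06 (SE 0.042, 95% interval -0.02 to 0.15), which did not pass the test (edgeR, adjusted p = 0.253).

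The partners of HIF1A were given by a list of 6 HIF subunits and coactivators, of which 5 were tested. Of these, EP300 was higher, ARNT was lower and 3 did not pass the test, with a median log2 fold change of 0.06. Over all genes tested, 19.3% were higher and 17.3% lower. ARNT, the beta subunit, had 116 and 112 CPM in siControl and 96.3 and 97.3 CPM in siALKBH5, with a log2 fold change of -0.24 (SE 0.042, edgeR, adjusted p = 2.5e-05). EP300, a histone acetyltransferase that HIF recruits, rose by 0.21 on the log2 scale (SE 0.050, edgeR, adjusted p = 9.2e-04). EPAS1, which encodes the alpha subunit HIF-2 alpha, had 124 and 124 CPM in siControl and 122 and 116 CPM in siALKBH5 (log2 fold change -0.06, edgeR, adjusted p = 0.301). HIF3A had 0 counts in all 4 libraries.

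Of the oxygen-sensing enzymes, EGLN1 was lower and EGLN3 was called higher, but only the fall of EGLN1 held without each library in turn. EGLN3 had few counts and passed the count filter only through the siALKBH5 libraries. Its call was lost when any single library was left out, so a rise of EGLN3 is not established here. EGLN1 (ENSG00000135766, chromosome 1 from 231363751 to 231425044, minus strand) encodes PHD2, the main prolyl hydroxylase that marks HIF alpha subunits. Its level was 73.2 and 67.7 CPM in siControl and 46.7 and 47.9 CPM in siALKBH5. Both siALKBH5 libraries lay well below both controls, at 67.2% of the control mean. The log2 fold change of EGLN1 was -0.57 (SE 0.057, 95% interval -0.69 to -0.46, edgeR, adjusted p = 6.5e-10), and it ranged from -0.63 to -0.51 without each library in turn. In size it was the largest of the 3 falls.

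EGLN3 (ENSG00000129521, chromosome 14 from 33924231 to 34462774, minus strand) encodes PHD3, a related hydroxylase whose own gene is a textbook HIF target. The control libraries held 3 and 5 EGLN3 counts and the knockdown libraries 17 and 12, which are 0.186 and 0.278 CPM against 0.910 and 0.729 CPM. The groups did not overlap, but all 4 values were low. The count filter keeps a gene with enough counts in as many libraries as a group holds. EGLN3 passed it only through the siALKBH5 libraries, where it was high, so its fold change and call are not independent of the filter. The log2 fold change of EGLN3 was 1.78 (SE 0.62, 95% interval 0.52 to 3.05, edgeR, adjusted p = 0.0209), or a 3.44-fold difference. Leaving out any single library lost the call, with an adjusted p of 0.172 without siControl replicate 1, 0.0998 without siControl replicate 2, 0.205 without siALKBH5 replicate 1 and 0.0803 without siALKBH5 replicate 2 (edgeR). DESeq2 gave it an unadjusted p of 0.053 and no adjusted p.

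**Figure D2:**
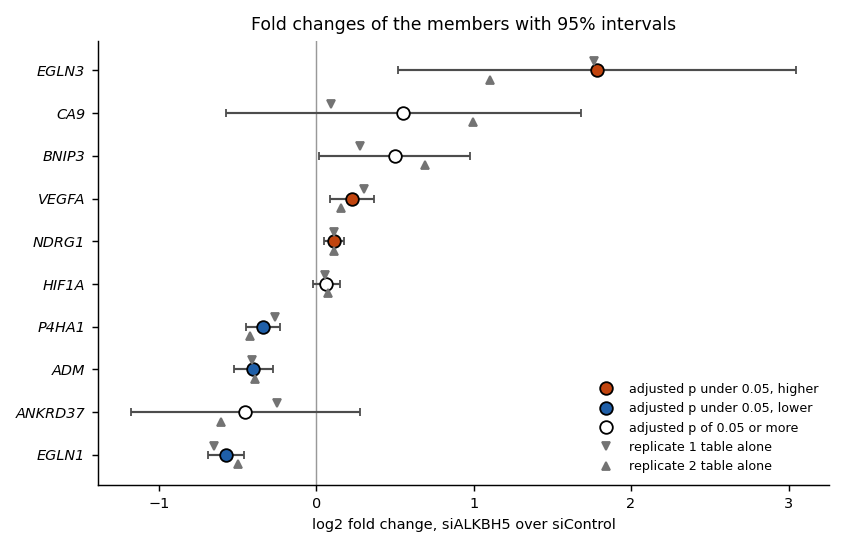
Log2 fold change of each of the 10 genes, siALKBH5 over siControl, on the horizontal axis, sorted by size, with 95% intervals as bars. Orange and blue points passed an adjusted p of 0.05 as higher and lower, white points did not, and triangles give the fold change within the table of each replicate, on counts with a prior of 2. EGLN1, ADM and P4HA1 had narrow intervals below 0, and EGLN3, CA9 and ANKRD37 had the widest.

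Of the 9 other genes listed for oxygen sensing and HIF degradation, 1 was higher, 0 were lower and 8 did not pass the test. Their median log2 fold change was -0.04. The shares over all genes tested were 19.3% higher and 17.3% lower. EGLN2, which encodes PHD1, had 2.30 and 1.67 CPM in siControl and 1.82 and 1.52 CPM in siALKBH5 (log2 fold change -0.23, edgeR, adjusted p = 0.615). Of the exonic bases of EGLN2, 30.6% are shared with other genes, so its counts are uncertain. VHL, the substrate receptor of the ubiquitin ligase, had 33.3 and 38.9 CPM against 37.8 and 32.6 CPM (log2 fold change -0.04, edgeR, adjusted p = 0.767). HIF1AN, the asparaginyl hydroxylase that blocks coactivator binding, also had a log2 fold change of -0.04 (edgeR, adjusted p = 0.537). The higher gene was ELOB, which encodes elongin B of the VHL complex, at 0.11 (SE 0.037, edgeR, adjusted p = 0.0209). The number higher went to 0 without siALKBH5 replicate 1 or siALKBH5 replicate 2. ELOB shares 16.8% of its exonic bases with a gene on the opposite strand that had 5378 to 6727 counts per library. Its counts are thus uncertain too.

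The secreted factors VEGFA and ADM moved in opposite directions. VEGFA (ENSG00000112715, chromosome 6 from 43770184 to 43786487) encodes the vascular endothelial growth factor that drives vessel growth. Its level was 36.0 and 39.0 CPM in siControl and 44.5 and 43.5 CPM in siALKBH5. The siALKBH5 values lay above both controls, at 117% of the control mean. VEGFA thus had a log2 fold change of 0.23 (SE 0.068, 95% interval 0.09 to 0.37, edgeR, adjusted p = 0.0077). Without siControl replicate 1, the lower of the controls, it was 0.18 (edgeR, adjusted p = 0.107), and with DESeq2 the adjusted p was 0.081.

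ADM (ENSG00000148926, chromosome 11 from 10304680 to 10307397) encodes adrenomedullin, a vasodilating peptide that hypoxia induces in many cell types. Its level was 55.4 and 54.2 CPM in siControl and 41.7 and 41.3 CPM in siALKBH5. The libraries of each group were nearly equal, and the siALKBH5 level was 75.7% of control. The log2 fold change of ADM was -0.40 (SE 0.061, 95% interval -0.52 to -0.28, edgeR, adjusted p = 2.8e-06).

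Of the 11 genes listed as other ligands and receptors of these pathways, 5 were tested. Among these, 2 were higher, 1 was lower and 2 did not pass, with a median log2 fold change of 0.33. For all genes tested the shares were 19.3% higher and 17.3% lower. NRP1 and NRP2, the neuropilins that act as VEGF coreceptors, rose by 0.64 (SE 0.17, edgeR, adjusted p = 0.0028) and by 0.33 (SE 0.070, edgeR, adjusted p = 2.9e-04) on the log2 scale. VEGFB, a related ligand, fell by 0.14 (SE 0.049, edgeR, adjusted p = 0.0223), and this call was lost without siControl replicate 1, siControl replicate 2 or siALKBH5 replicate 2, when 0 genes were lower. For CALCRL, the core of the adrenomedullin receptor, 14 and 13 counts were found in siControl against 7 and 6 (log2 fold change -1.08, edgeR, adjusted p = 0.129). CALCRL passed the count filter only through the siControl libraries, where it was higher, so its fold change is not independent of the filter. The VEGF receptor KDR and the CALCRL partners RAMP1, RAMP2 and RAMP3 had 0 counts in all libraries, and FLT1 had 1 count in all.

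Of the remaining target genes, P4HA1 was lower, NDRG1 was slightly higher and CA9, BNIP3 and ANKRD37 did not pass the test. P4HA1 (ENSG00000122884, chromosome 10 from 73007217 to 73096974, minus strand) encodes the catalytic alpha subunit of collagen prolyl 4-hydroxylase, which stabilises collagen. Its level was 76.5 and 77.1 CPM in siControl and 63.7 and 57.6 CPM in siALKBH5. The controls were nearly equal, the siALKBH5 libraries were further apart, and the groups did not overlap. For P4HA1 the log2 fold change was -0.34 (SE 0.053, 95% interval -0.45 to -0.23, edgeR, adjusted p = 5.0e-06), and siALKBH5 was at 79.0% of control.

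NDRG1 (ENSG00000104419), a gene induced by hypoxia and by differentiation, was the most abundant of the 10 genes. It had 250 and 242 CPM in siControl and 270 and 261 CPM in siALKBH5. The groups did not overlap, but the difference was small, with siALKBH5 at 108% of control. For NDRG1 the log2 fold change was 0.11 (SE 0.031, 95% interval 0.05 to 0.18, edgeR, adjusted p = 0.0035). It was 0.09 without siControl replicate 2 (edgeR, adjusted p = 0.074) and 0.09 without siALKBH5 replicate 1 (edgeR, adjusted p = 0.066), which lost the call in both cases.

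BNIP3 (ENSG00000176171, chromosome 10 from 131966455 to 131982013, minus strand) encodes a mitochondrial protein that promotes mitophagy in hypoxia. Its counts were 48 and 44 with control siRNA and 68 and 66 after knockdown, or 2.98 and 2.45 CPM against 3.64 and 4.01 CPM. Both siALKBH5 libraries were above both controls. BNIP3 had a log2 fold change of 0.50 (SE 0.23, 95% interval 0.02 to 0.97), with an unadjusted p of 0.041 and an adjusted p of 0.096 from edgeR, so that it was not called.

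CA9 (ENSG00000107159, chromosome 9 from 35673856 to 35681159) encodes carbonic anhydrase IX, a cell-surface enzyme of pH control and a standard marker of HIF activity. Only 12 and 5 counts were found in siControl, against 15 and 11 after knockdown. The groups overlapped, and siControl replicate 2 was the lowest library. For CA9 the log2 fold change was 0.55 (SE 0.55, 95% interval -0.57 to 1.68, edgeR, adjusted p = 0.465), and without siControl replicate 2 it was -0.01. ANKRD37 (ENSG00000186352, chromosome 4 from 185396021 to 185400628), an ankyrin-repeat gene that is a known HIF target, had 26 and 31 control counts and 25 and 18 knockdown counts. Its siALKBH5 levels of 1.34 and 1.09 CPM were below the controls at 1.61 and 1.72 CPM. The log2 fold change of ANKRD37 was -0.45 (SE 0.36, 95% interval -1.17 to 0.28, edgeR, adjusted p = 0.347).

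Of the exonic bases, 38.5% of CA9 lie on those of ARHGEF39 and 35.2% of ANKRD37 on those of UFSP2, in both cases on the opposite strand. The siControl and siALKBH5 counts were 134 and 173 against 373 and 302 for ARHGEF39, and 304 and 346 against 334 and 313 for UFSP2. How the counting treated strand is not given in the sources used here, so reads of CA9 and ANKRD37 cannot be told apart from those of these partners in the shared bases. The shared part was 5.14% for HIF1A, 1.52% for P4HA1, 1.3% for VEGFA and 0 for the other 5 genes.

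**Figure D3:**
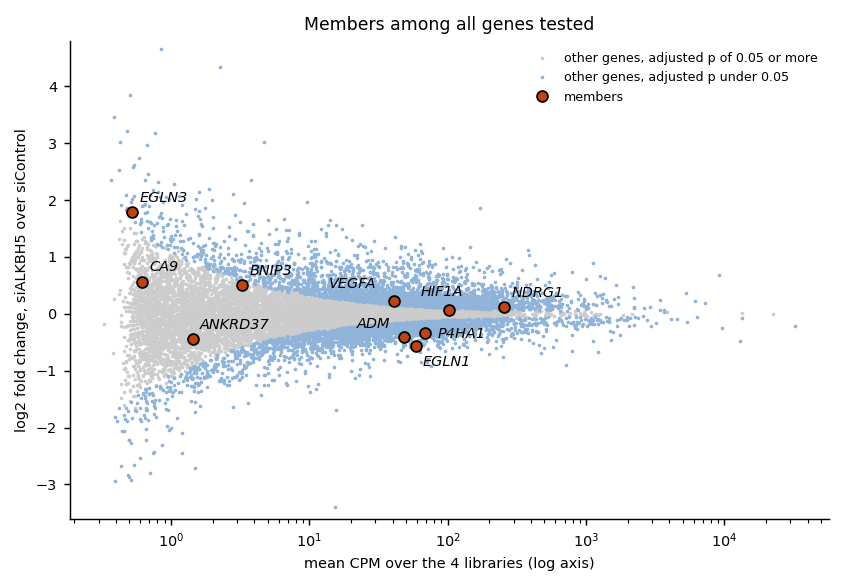
Log2 fold change, siALKBH5 over siControl, on the vertical axis against mean CPM over the 4 libraries on a log axis, for the 15075 genes tested. Blue points passed an adjusted p of 0.05, grey points did not, and the 10 genes are the labelled orange points. EGLN3, CA9, ANKRD37 and BNIP3 lay at the low end, where only large fold changes passed, and NDRG1, the most abundant, was called at 0.11.

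The levels of the 10 genes were also compared per length, as CPM per kilobase of exonic length. This length merges all annotated exons of a gene and can exceed that of any single transcript. For VEGFA it was 14431 bases within a span of 16304. The order of the genes therefore rests in part on the annotation. In siControl, NDRG1 had 25.0 ± 0.579 and P4HA1 24.8 ± 0.156 CPM per kilobase (SD, n = 2), which did not differ beyond their spread. In siALKBH5 these genes stood apart, at 27.1 ± 0.675 and 19.6 ± 1.40. Next in siControl came ADM at 20.2 ± 0.321 and HIF1A at 19.5 ± 0.228, and their order turned in siALKBH5, with ADM at 15.3 ± 0.101 and HIF1A at 20.4 ± 0.416. EGLN1 followed at 9.70 ± 0.539 in siControl and 6.52 ± 0.117 in siALKBH5, and VEGFA at 2.60 ± 0.148 and 3.05 ± 0.0482. The remaining genes were far lower. ANKRD37 had 0.647 ± 0.0300 and BNIP3 0.509 ± 0.0709 in siControl, and in siALKBH5 their order turned to 0.471 ± 0.0671 and 0.718 ± 0.0491. CA9 had 0.306 ± 0.198 in siControl and 0.441 ± 0.0570 in siALKBH5, and EGLN3 was the lowest in both groups at 0.0315 ± 0.00881 and 0.111 ± 0.0174. EGLN1 was thus present at a far higher level per length than EGLN3 in every library.

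**Figure D4:**
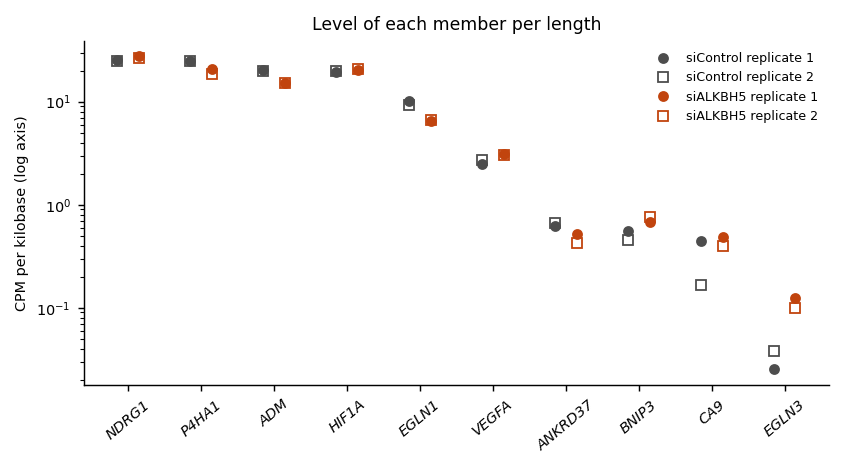
Level of each of the 10 genes per length, in CPM per kilobase of merged annotated exons on a log axis, in order of the siControl mean, with 1 marker per library. NDRG1 and P4HA1 led in siControl, and EGLN3 was the lowest in each of the 4 libraries.

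Most of the glycolysis genes listed as HIF targets were higher in siALKBH5. Of the 20 listed, 19 were tested, and 13 were higher, 0 were lower and 6 did not pass. Over all genes tested, 19.3% were higher and 17.3% lower. The median log2 fold change of the list was 0.32, with called values between 0.27 and 0.78. Their summed level was 5301 and 5323 CPM in siControl and 7011 and 7021 CPM in siALKBH5. ALDOC, an aldolase, rose by 0.78 (SE 0.070, edgeR, adjusted p = 4.9e-11) and GPI, the glucose-6-phosphate isomerase, by 0.76 (SE 0.033, edgeR, adjusted p = 4.0e-19). ALDOA was at 0.55 (SE 0.15, edgeR, adjusted p = 0.0040), but 53.5% of its exonic bases are shared with other genes, and its counts of 99 and 114 in siControl and 180 and 141 in siALKBH5 are uncertain. GAPDH rose by 0.47, PGAM1 by 0.40, the glucose transporter SLC2A1 by 0.38 and the lactate dehydrogenase LDHA by 0.32, with edgeR adjusted p-values of 6.9e-22, 9.05e-14, 1.0e-12 and 8.7e-14. PDK1, the kinase that limits entry of pyruvate into mitochondria, was at 0.18 (SE 0.15, edgeR, adjusted p = 0.395). The other listed genes that did not pass were PFKFB4 at 0.11, HK2 at 0.04, PFKFB3 at 0.02, SLC16A3 at 0.01 and ENO2 at -0.13. The rise was thus not shared by all of the list. HIF is not the only regulator of these genes.

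Of the 26 HIF targets listed outside glycolysis, 23 were tested. Among these, 7 were higher, 5 were lower and 11 did not pass, with a median log2 fold change of 0.07. The shares over all genes tested were 19.3% higher and 17.3% lower. The higher genes included P4HA2, the other main catalytic subunit of collagen prolyl 4-hydroxylase, at 0.34 (SE 0.054, edgeR, adjusted p = 5.3e-06). The lower genes included INSIG2, a regulator of sterol synthesis, at -0.57 (SE 0.093, edgeR, adjusted p = 9.1e-06), the histone demethylase KDM3A at -0.44 (SE 0.052, edgeR, adjusted p = 1.7e-08), DDIT4, an inhibitor of mTORC1, at -0.39 (SE 0.025, edgeR, adjusted p = 8.7e-15) and the mitophagy receptor BNIP3L at -0.39 (SE 0.062, edgeR, adjusted p = 4.7e-06). Of the exonic bases of DDIT4, 41.2% are shared with another gene. The number higher fell to 4 without siControl replicate 1 or siControl replicate 2, and the number lower stayed at 5. P4HA1 and its relative P4HA2 thus went in opposite directions. So did EGLN1 and EGLN3, but the EGLN3 call rested on few counts and was lost without any single library.

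Of the 9 genes listed from the families of these genes, 8 were tested. Among these, 2 were higher and 4 lower, with 2 not past the test and a median log2 fold change of -0.14. For all genes tested the shares were 19.3% higher and 17.3% lower. Higher were CA2, a cytosolic carbonic anhydrase, at 0.44 (SE 0.029, edgeR, adjusted p = 3.0e-14) and P4HB, the beta subunit that pairs with P4HA1, at 0.22 (SE 0.025, edgeR, adjusted p = 1.3e-08). Lower were CA13 at -0.47, NDRG4 at -0.35, BNIP2 at -0.34 and NDRG2 at -0.32, with edgeR adjusted p-values of 0.0297, 0.0014, 1.3e-07 and 1.9e-04. The number lower was 3 without each library in turn and 3 with DESeq2. NDRG1 and its relatives NDRG2 and NDRG4 had opposite signs, whereas NDRG3 was at 0.04 (SE 0.038, edgeR, adjusted p = 0.492).

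**Figure D5:**
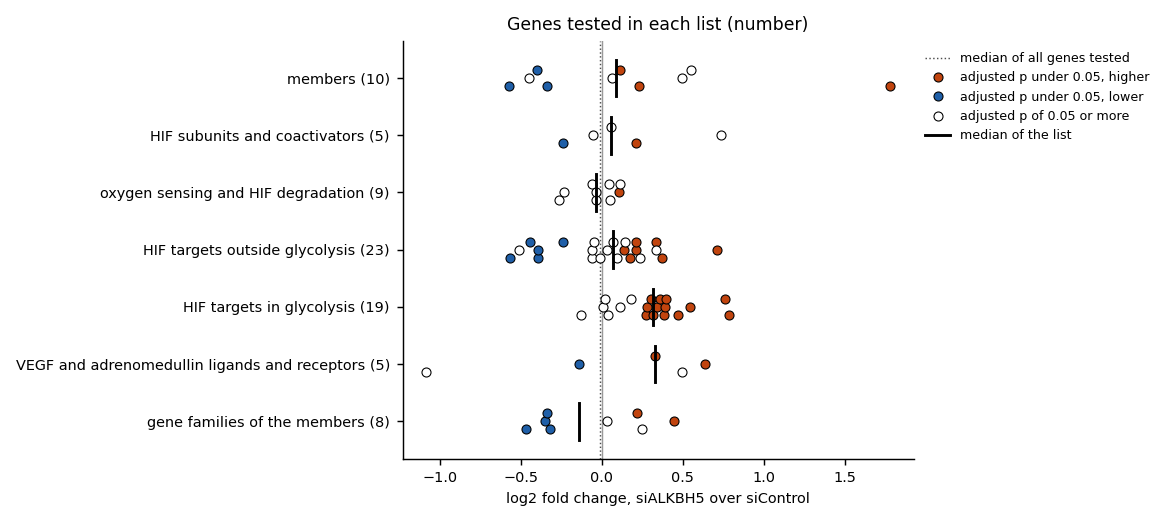
Log2 fold change, siALKBH5 over siControl, on the horizontal axis for each gene tested in the 10 hypoxia genes (labelled members) and in 6 lists of related genes. Orange and blue points passed an adjusted p of 0.05 as higher and lower, white points did not, thick bars are list medians and the dotted line is the median of all genes tested. The glycolysis list lay to the right with a median of 0.32 and 0 genes called lower, and the 10 genes lay on both sides of 0.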

How the data were processed

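RNA was measured in 4 HaCaT libraries, 2 siControl and 2 siALKBH5. The authors enriched poly-A RNA and deposited 2 tables of raw counts per gene, each with 1 siControl and 1 siALKBH5 library. The submitters' processing notes name CASAVA, HISAT2 2.0.5, featureCounts 1.5.0-p3, DESeq2 1.20.0 and hg38. All 58735 identifiers and coordinates matched GENCODE 29. The deposited FPKM and the fold changes and p-values of 1 library against 1 were not used, and MeRIP-seq was not analysed here.

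The counts were filtered with filterByExpr, scaled by TMM and fitted over all 4 libraries without covariates (glmQLFit and glmQLFTest of edgeR 4.0.16, R 4.3.3), with Benjamini-Hochberg adjustment. Alternatives were the DESeq2 1.42.0 test or its size factors, scaling by library size, no filter or a floor of 10 mean counts, a block on the replicate number, either table alone and leaving out each library. Scripts were tested on simulated data. The 10 genes and all lists were chosen with earlier results of these data known. Named from each list were the genes at an adjusted p under 0.05 with the largest fold changes, up to 5, and EPAS1, ARNT, EGLN2, VHL, HIF1AN, SLC2A1, LDHA, PDK1, BNIP3L, KDM3A, P4HA2 and P4HB, except 1 gene that is not reported here. CALCRL, NDRG3, KDR, FLT1, HIF3A, the RAMP genes, ARHGEF39, UFSP2 and ALPG were named after their values were seen, as were the named cell markers. So were HK2, PFKFB3, PFKFB4, ENO2 and SLC16A3. Whether duplicates are separate cultures is not stated, so p-values measure only the spread between these libraries, with a common coefficient of variation of 0.0253. Replicates differed by more than sampling noise (chi-square per degree of freedom 1.74 and 1.85). An exact permutation test of 2 against 2 cannot go below 0.333. Same-numbered libraries did not deviate together (correlation 0.0337), so they were not paired.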

Additional observations from a re-analysis of the deposited data

How the results depend on the processing

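EGLN1, ADM, P4HA1 and HIF1A kept their direction under all 12 alternatives and their side of the threshold under the 10 that give a test. Without each library in turn, the log2 fold change ranged from 0.18 to 0.29 for VEGFA, 0.089 to 0.14 for NDRG1, 1.55 to 2.10 for EGLN3 and -0.012 to 1.39 for CA9, which reversed to -0.012 without siControl replicate 2. The number of the 10 genes higher ranged from 1 to 2, and at a log2 fold change of at least 1 it was 0 throughout and 0 at a mean of at least 10 counts, where EGLN3 was not tested. Leave-one-out ranges of list counts were 0 to 1 higher for oxygen sensing, 4 to 6 higher for targets outside glycolysis and 0 to 1 lower for ligands and receptors. With DESeq2, VEGFA was at 0.23 with an adjusted p of 0.081, 1 of the 10 genes was higher, the lists had 0 (oxygen sensing), 4 (outside glycolysis) and 1 (ligands and receptors) higher and 0 lower among ligands and receptors, and 1834 genes in all were higher and 1247 lower, against 2913 and 2610 with edgeR. DESeq2 gave EGLN3, CA9 and ANKRD37 no adjusted p. Oxygen sensing had 0 higher with library size only, and ligands and receptors had 0 lower with no filter. In the table of replicate 1 alone BNIP3 was at 0.28 and ANKRD37 at -0.25, and in that of replicate 2 alone EGLN3 was at 1.10. With the replicate number as a block, the 10 genes had the same 3 higher and 3 lower calls, and EGLN3 had an adjusted p of 0.0179. The values of single tables use a prior count of 2, which draws those of low genes such as EGLN3 towards 0. CA9 and EGLN3 had 3 to 17 counts per library, and the causes of the lost calls were not tested.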

Other observations

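The genes outside the lists with a profile over the 4 libraries near that of EGLN3 depended on how its few counts were put on a log scale. Likeness was the Euclidean distance of log2 CPM, each gene taken from its own mean, over 9189 genes with a mean CPM of at least 10. With a prior count of 2, which shrinks EGLN3 more than abundant genes, the nearest were CALHM2, PKMYT1 and ORC1 at distances of 0.039, 0.206 and 0.219. Without a prior count, an alternative added after the data were seen, the nearest were PKMYT1 at 0.389, ALPG at 0.397 and ORC1 at 0.425, and CALHM2 was at 0.445. PKMYT1, a kinase that restrains entry into mitosis, had 7.20 and 8.61 CPM in siControl and 24.1 and 22.7 CPM in siALKBH5. ORC1, a subunit of the origin recognition complex, had 6.52 and 7.28 CPM against 21.4 and 19.4 CPM. CALHM2 had 6.33 and 8.11 CPM against 21.0 and 17.7 CPM, and ALPG had 72.1 and 75.3 CPM against 278 and 259 CPM. These genes were found by their values, and EGLN3 itself rests on few counts. EGLN3 was used because its fold change was the largest among the called genes of the 10. It passed the count filter only through the siALKBH5 libraries, where it was high. With 2 libraries per group, nearness in this distance largely reflects a similar fold change, and a link of these genes to EGLN3 was not tested.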
